A study of Mus musculus with 12 samples.

Results

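The brush border is the carpet of microvilli on the apical face of intestinal epithelial cells, and 10 of the genes that build it were followed in ileal and colonic mucosa of control and Slc39a8-IEC KO mice. The genes, chosen by name with earlier results of these data known, were Vil1, Espn, Pls1, Ezr, Myo1a, Cdhr2, Cdhr5, Ush1c, Myo7b and Eps8. Each symbol matched 1 of the 53715 gene rows of the expected-count table, and all 10 passed the filter on low counts, which kept 16558 genes. RNA was taken from the mucosa of 8-week-old male C57BL/6J mice, in 12 libraries, with 3 for each of 4 groups. The control groups of ileum and colon are labelled Slc39a8-fl/fl, that is, homozygous for the floxed allele of the metal transporter gene Slc39a8, although the methods of the study describe its controls as a mixture that also held wild-type and Villin-Cre animals. The KO groups are labelled Slc39a8-fl/fl:Villin-Cre and share the floxed alleles with the labelled controls. In them Cre recombinase is driven by the promoter of Villin, which is Vil1 itself, and is active in intestinal epithelial cells and not in the other cells of the mucosa. Nothing in the labels says whether an ileal and a colonic library came from the same mouse, so p-values measure the spread between these libraries.

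Each microvillus holds a core of parallel actin filaments. Villin, espin and plastin 1 bundle the filaments, while ezrin and the motor myosin 1a fasten the core to the membrane around it. At the tips, the cadherins Cdhr2 and Cdhr5 join neighbouring microvilli, and inside the cell the scaffold Ush1c (harmonin), the motor Myo7b and partners such as Anks4b and Calml4 hold these cadherins in place. Eps8, an actin regulator, also sits at the tips. Absorptive cells of the small intestine are known for a tall, dense brush border, and colonic surface cells carry one too.

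The libraries held 16749138 to 27903083 expected counts, and each of the 10 genes had between 1967 and 74342 counts in every library, so depth did not limit their measurement. Levels are given as CPM, that is, counts scaled to a common library total with TMM factors, and per kb of exon where genes are compared with each other. Slc39a8 was at 8.39, 5.22 and 6.59 CPM in the ileal control libraries and at 4.35, 2.62 and 2.8 CPM in the ileal KO libraries. In colon it was at 20.8, 20.5 and 20.1 CPM in control and at 7.35, 11.5 and 7.93 CPM in KO. Its KO values lay below its control values in both tissues, with a log2 fold change over both of -1.13 (SE 0.17, edgeR adjusted p = 0.38 over all genes, not called).

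Some libraries stood apart. Ileal control replicate 3 and ileal KO replicate 1 held 34.2 and 20.2 CPM in the sum of the 6 smooth muscle markers, against 1814 to 2643 CPM in the other ileal libraries. Acta2, smooth muscle actin, was at 7.14 and 4.89 CPM there against 398 to 537 CPM, and Myh11, smooth muscle myosin, at 8.29 and 3.34 CPM against 502 to 698 CPM. Ileal KO replicate 2 held 2632 CPM of Car1 and 67.3 CPM of Aqp8, which mark colonic epithelium. The other ileal libraries had 3.4 to 144 CPM of Car1, and the colonic libraries 14884 to 27124 CPM. The colonic libraries held 5.76 to 26.8 CPM of Fabp6, an ileal bile acid carrier, against 3362 CPM or more in ileum, yet also 547 to 916 CPM of the ileal bile acid transporter Slc10a2. Results that rest on these libraries are also given without them.

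The 250 bases before the start of a gene were found for 8 of the 10 genes in a RefSeq table of the GRCm38.p6 build. The windows of 5 genes are shown, less any bases that GENCODE M21 places inside the gene. They are those of Vil1, whose promoter drove Cre in the KO mice, of Pls1, which differed most between the tissues, of the cadherins Cdhr2 and Cdhr5, and of Ush1c, which differed least between the tissues in control mice. Capitals mark letters that match 1 of 4 motifs searched on both strands, namely the CArG box that binds Srf, CAAAG (part of the site of Hnf4 factors), TTTAT (part of the site of Cdx factors) and GTTAAT (part of the site of Hnf1 factors). The motifs were chosen after the sequences had been read.
Vil1: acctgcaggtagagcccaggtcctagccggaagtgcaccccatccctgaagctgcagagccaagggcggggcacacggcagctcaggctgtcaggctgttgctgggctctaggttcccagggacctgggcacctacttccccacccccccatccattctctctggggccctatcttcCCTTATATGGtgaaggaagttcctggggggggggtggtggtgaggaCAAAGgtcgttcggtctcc
Pls1: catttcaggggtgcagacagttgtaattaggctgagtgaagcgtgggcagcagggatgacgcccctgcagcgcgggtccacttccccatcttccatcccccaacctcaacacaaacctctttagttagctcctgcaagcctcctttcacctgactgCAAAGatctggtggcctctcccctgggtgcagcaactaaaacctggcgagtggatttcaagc
Cdhr2: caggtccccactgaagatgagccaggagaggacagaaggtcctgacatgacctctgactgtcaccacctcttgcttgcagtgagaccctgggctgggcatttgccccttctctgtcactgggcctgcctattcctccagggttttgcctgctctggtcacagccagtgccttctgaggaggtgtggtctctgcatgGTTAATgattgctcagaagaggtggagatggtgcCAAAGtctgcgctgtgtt
Cdhr5: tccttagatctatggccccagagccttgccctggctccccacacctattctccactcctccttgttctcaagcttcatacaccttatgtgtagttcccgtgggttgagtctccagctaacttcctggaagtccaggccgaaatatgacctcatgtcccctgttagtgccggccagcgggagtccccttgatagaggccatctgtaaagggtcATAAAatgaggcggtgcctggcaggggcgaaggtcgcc
Ush1c: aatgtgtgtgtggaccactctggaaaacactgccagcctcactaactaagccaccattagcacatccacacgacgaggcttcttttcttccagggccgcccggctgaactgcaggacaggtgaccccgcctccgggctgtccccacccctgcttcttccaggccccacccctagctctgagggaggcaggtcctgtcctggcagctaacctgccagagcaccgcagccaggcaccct
The Vil1 window is chr1:74409134-74409375 on the plus strand, and that of Cdhr2 is chr13:54701213-54701460, also on the plus strand. The others lie on the minus strand, with Pls1 at chr9:95845312-95845529, Cdhr5 at chr7:141276787-141277036 and Ush1c at chr7:46238504-46238740.

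Vil1 was the only member of the 8 with a CArG box, which 1.48% of 32536 windows of this length held. CAAAG stood before 4 of the 8 genes, against 48.7% of windows, and TTTAT before 2 of the 8, against 37.2%. The 8 genes had 10 windows, and a gene was counted if any of its windows matched. Espn, with several windows, matched CAAAG and TTTAT in only 1 of them. Counts of genes and shares of windows are therefore not on the same scale. GTTAAT stood before Cdhr2 alone, against 6.47% of windows. The Ush1c window held none of the 4. These are matches of letters, and binding was not measured.

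All 10 genes were lower in colon than in ileum. In control mice each was called at an adjusted p under 0.1, 10 of 10 lower, where 19.6% of all tested genes were called lower. In KO mice 10 of 10 were again called lower, against a background of 20%. The genes were chosen with earlier results known, so these counts are a description and not a test of the list. The median log2 fold change of the 10 genes was -1.27 in control mice and -1.25 in KO mice, while that of all genes was 0.02 and 0.01. For every member all 6 colonic libraries lay below all 6 ileal libraries, which held for 14.7% of genes. The direction for Cdhr5, Ush1c and Myo7b turned when values were scaled to epithelial transcripts, and that for Eps8 turned when they were scaled to Epcam, Cdh1 and Cldn7, as described further on. These are bulk samples, in which fewer cells of a type and less RNA per cell cannot be told apart.

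**Figure D1:**
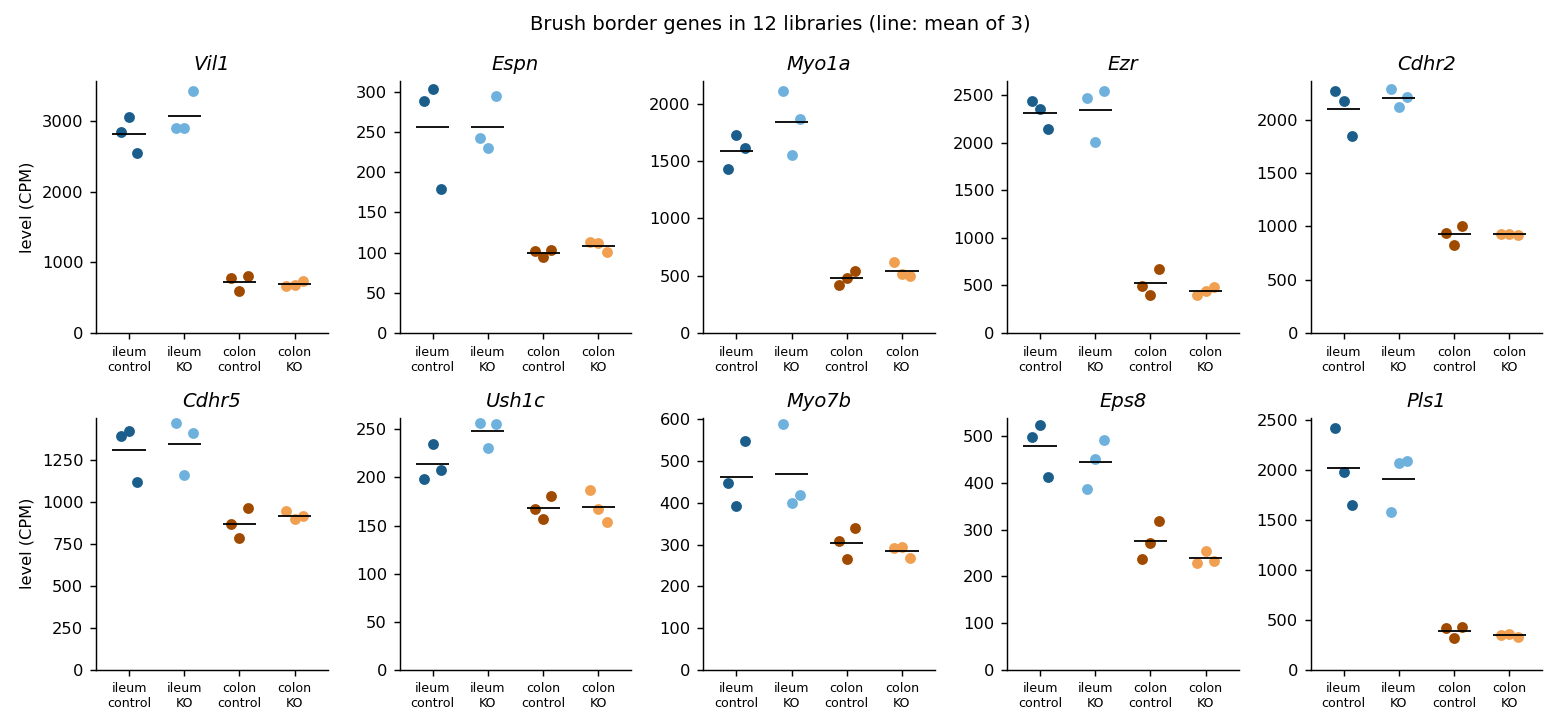
Level in CPM on a linear axis from 0 of each of the 10 genes in the 3 libraries of each group, with points for libraries in replicate order and a line for the mean of 3. In every panel the 6 colonic points lie below the 6 ileal points, and control and KO points of a tissue overlap.

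Of the genes that bundle actin, Vil1 encodes villin, which bundles and also severs filaments (ENSMUSG00000026175.12, chromosome 1, 74409376 to 74435559, plus strand, GRCm38). In ileum Vil1 was at 2844, 3055 and 2553 CPM in control replicates 1 to 3 and at 2900.2, 2905 and 3424 CPM in KO. The colonic libraries stood at 779.6, 590.5 and 806 CPM in control and at 662, 673 and 743 CPM in KO. The tissues were far apart and the genotypes overlapped. The colon was 3.88-fold lower in control mice (log2 fold change -1.96, SE 0.17, edgeR adjusted p = 8.7e-06) and 4.44-fold lower in KO mice (-2.15, SE 0.17, adjusted p = 4.6e-06). Vil1 shares 49 exon bases with Usp37 on the opposite strand, and the library kit did not keep strand, so reads there cannot be assigned.

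Pls1, which encodes plastin 1 (ENSMUSG00000049493.13, chromosome 9, 95752642 to 95845311, minus strand), showed the widest gap of the 10 genes. Its ileal levels were 2413, 1977 and 1646 CPM in control and 1580.5, 2062 and 2089 CPM in KO. Its colonic levels were 420.3, 314 and 429 CPM in control and 343, 360.2 and 327 CPM in KO. The colon was 5.19-fold lower in control mice (log2 fold change -2.38, SE 0.20, edgeR adjusted p = 6.4e-06) and 5.56-fold lower in KO mice (-2.48, SE 0.20). The lowest ileal levels of Pls1 were those of the libraries with few muscle transcripts.

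Espn, which encodes the bundling protein espin (ENSMUSG00000028943.18, chromosome 4, 152120331 to 152152371, minus strand), was the least abundant of the bundlers. It was at 288, 303 and 179.6 CPM in ileal control and at 243, 229.8 and 295 CPM in ileal KO libraries. Colonic levels were 102, 94.4 and 103 CPM in control and 113, 112 and 101 CPM in KO. Ileal control replicate 3, with few muscle transcripts, was the lowest ileal library. The log2 fold change of colon over ileum was -1.36 (SE 0.19, edgeR adjusted p = 0.00023) in control and -1.24 (SE 0.19, adjusted p = 0.00047) in KO mice, and -1.58 in control mice without both libraries that had few muscle transcripts.

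Ezr and Myo1a tie the actin core to the membrane. Ezr encodes ezrin, which binds actin at its tail and membrane proteins at its head (ENSMUSG00000052397.8, chromosome 17, 6738041 to 6782784, minus strand). Ezr was at 2433, 2358 and 2144 CPM in ileal control libraries and at 2467, 2007 and 2540.2 CPM in ileal KO libraries. In colon it was at 497, 398 and 668 CPM in control and at 402, 440.3 and 481 CPM in KO. It was 4.44-fold lower in colon in control mice (log2 fold change -2.15, SE 0.20, edgeR adjusted p = 1.5e-05) and 5.3-fold lower in KO mice (-2.41, SE 0.20). Colonic control replicate 3 was the highest colonic library.

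Myo1a encodes the myosin that forms bridges from the core to the membrane along the microvillus (ENSMUSG00000025401.9, chromosome 10, 127705170 to 127720940, plus strand). It was at 1432, 1733 and 1613 CPM in ileal control and at 2115, 1557 and 1867 CPM in ileal KO libraries. The colonic libraries stood at 417, 483 and 539 CPM in control and at 617, 512 and 498 CPM in KO. The colon was 3.32-fold lower in control mice (log2 fold change -1.73, SE 0.17, edgeR adjusted p = 2.4e-05) and 3.4-fold lower in KO mice (-1.77, SE 0.17).

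The cadherins that link the tips differed from each other in how far they fell. Cdhr2, also known as protocadherin 24 (ENSMUSG00000034918.8, chromosome 13, 54701461 to 54736662, plus strand), was at 2269.6, 2171 and 1849 CPM in ileal control and at 2288, 2117 and 2209 CPM in ileal KO libraries. Colonic levels were 941, 828 and 1001 CPM in control and 929, 931 and 916 CPM in KO, so that it was 2.27-fold lower in control mice (log2 fold change -1.18, SE 0.14, edgeR adjusted p = 9.7e-05). Cdhr5, its partner in the links (ENSMUSG00000025497.15, chromosome 7, 141269083 to 141276786, minus strand), was at 1393, 1419 and 1118 CPM in ileal control and at 1465, 1157 and 1411 CPM in ileal KO libraries. Its colonic levels were 868, 782 and 959.7 CPM in control and 943, 894 and 913 CPM in KO, which made it 1.51-fold lower in control mice (log2 fold change -0.59, SE 0.15, edgeR adjusted p = 0.015). In KO mice the log2 fold changes were -1.25 for Cdhr2 and -0.55 for Cdhr5.

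Measured per kb of exon, the ratio of Cdhr5 to Cdhr2 was therefore not the same along the gut. In ileum it was 0.925, 0.986 and 0.911 in control and 0.965, 0.824 and 0.963 in KO libraries. In colon it was 1.39, 1.42 and 1.45 in control and 1.53, 1.45 and 1.5 in KO libraries. The tissues did not overlap, with more Cdhr2 than Cdhr5 in every ileal library and more Cdhr5 than Cdhr2 in every colonic library. The lowest ileal ratio was that of KO replicate 2, the library with Car1. This ratio was chosen after the values were seen and was not tested. It does not depend on how libraries are scaled. Which cadherin had more rests on the exon lengths used, while the gap between the tissues does not.

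Ush1c, the scaffold that anchors the cadherins, showed the smallest difference of the 10 genes in control mice. It (ENSMUSG00000030838.18, chromosome 7, 46195350 to 46238503, minus strand) was at 198, 235 and 208 CPM in ileal control and at 257, 231 and 256 CPM in ileal KO libraries. In colon it was at 167, 157 and 181 CPM in control and at 187, 167 and 154 CPM in KO. The log2 fold change of colon over ileum was -0.35 (SE 0.12, edgeR adjusted p = 0.054) in control mice and -0.55 (SE 0.12, adjusted p = 0.0062) in KO mice. The call in control mice was lost without ileal control replicate 2 (-0.27, edgeR adjusted p = 0.16), without colonic control replicate 1 (-0.34, adjusted p = 0.12) and without colonic control replicate 2 (-0.30, adjusted p = 0.17). An unassigned transcript, Gm9860, shares 120 exon bases with Ush1c on the opposite strand, whose reads cannot be told apart.

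Myo7b, on chromosome 18 (ENSMUSG00000024388.10), encodes the motor of the tip complex. It was at 447, 393 and 549 CPM in ileal control and at 588, 399 and 419.9 CPM in ileal KO libraries, and both high values came from the libraries with few muscle transcripts. The colonic libraries stood at 308, 265 and 339.7 CPM in control and at 292, 294 and 267 CPM in KO. The log2 fold change was -0.61 (SE 0.18, edgeR adjusted p = 0.027) in control and -0.72 (SE 0.18, adjusted p = 0.012) in KO mice, and it was -0.48 and -0.52 without those libraries. The call in control mice was lost without colonic control replicate 2 (-0.52, edgeR adjusted p = 0.11).

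Eps8, the tip regulator (ENSMUSG00000015766.14, chromosome 6, 137477245 to 137654876, minus strand), was at 498, 525 and 412 CPM in ileal control and at 388, 452 and 493 CPM in ileal KO libraries. Colonic levels were 237, 271 and 318 CPM in control and 229, 255 and 232 CPM in KO. Colonic Eps8 was 1.74-fold lower in control mice (log2 fold change -0.80, SE 0.15, edgeR adjusted p = 0.0026) and 1.86-fold lower in KO mice (-0.90, SE 0.15).

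Differences of this size were not all rare among genes. In control mice 6 of the 10 members were lower by more than 1 on the log2 scale, namely Pls1, Ezr, Vil1, Myo1a, Espn and Cdhr2, against 10.2% of genes, and Pls1 and Ezr were lower by more than 2, against 4.29%. In KO mice the same 6 were lower by more than 1, against 10.1% of genes, and Pls1, Ezr and Vil1 by more than 2, against 4.14%. Without ileal KO replicate 2, which held Car1, 10 of 10 genes were still called lower in KO mice, with log2 fold changes from -2.51 for Ezr to -0.60 for Ush1c. Without both libraries with few muscle transcripts, 10 of 10 were called lower in both genotypes.

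The general epithelial transcripts were lower in colon as well. The summed level of the 8 epithelial markers (Epcam, Cdh1, Krt8, Krt18, Krt19, Cldn7, Cldn3 and Elf3) was 13300.1 to 16578 CPM in ileum and 8196 to 9286 CPM in colon. Krt8 was the largest part of the sum, with means of 7006 CPM in ileum and 4256 CPM in colon. Of the 8, 6 were called lower in control mice, with a median log2 fold change of -0.68, and 6 in KO mice, with a median of -0.81. Cldn3 and Elf3 went the other way in their means, at 326 and 274 CPM in ileum and 341 and 351 CPM in colon. Epcam, an epithelial adhesion molecule, had a log2 fold change of -1.10 (SE 0.16) and Cdh1, E-cadherin, one of -0.69 (SE 0.13) in control mice. Krt20, a keratin of mature surface cells, had one of -1.37 (SE 0.19, edgeR adjusted p = 0.00027). Among markers of differentiated enterocytes, 6 of 7 tested were lower and 1 was higher in control mice, and the list summed to 19608 to 28598 CPM in ileum and 2599 to 3724 CPM in colon.

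Other cell types differed too, and their part in the result was not tested. All 4 Paneth cell markers were lower in colon, at 4252 to 13068 CPM together in ileum and 5.13 to 12 CPM in colon. Of 5 goblet cell markers, 4 were lower and 1 higher, and of 6 crypt and proliferation markers 4 were lower. Of 5 leukocyte markers, 2 were lower in control mice. The markers of smooth muscle (6), fibroblasts (5), endothelium (3) and tuft cells (5) held no call in control mice.

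The members were therefore also measured relative to the summed counts of the 8 epithelial markers. This scaling moved the median of all genes to 0.71 in control mice, so that 7.44% of genes were called lower and 57.3% higher in colon. Relative to it 6 members were still called lower in control mice, with log2 fold changes of -1.70 for Pls1, -1.47 for Ezr, -1.27 for Vil1, -1.04 for Myo1a, -0.68 for Espn and -0.50 for Cdhr2. Eps8 at -0.11, Myo7b at 0.08 and Cdhr5 at 0.10 were not called. Ush1c was called higher at 0.35 (SE 0.12, edgeR adjusted p = 0.025), a size below the median of all genes. In KO mice, with 6.08% of genes lower and 65.5% higher, the same 6 were called lower and Ush1c was called higher at 0.28 (adjusted p = 0.054). A further scale used only Epcam, Cdh1 and Cldn7, whose means were all lower in colon. On it Cdhr2 was no longer called in control mice (-0.16, edgeR adjusted p = 0.29) or in KO mice (-0.22, adjusted p = 0.15). Espn was not called on it in KO mice (-0.20, edgeR adjusted p = 0.25). The calls for Pls1, Ezr, Vil1 and Myo1a held on all 3 scales in both genotypes, while those for Espn, Cdhr2, Cdhr5, Ush1c, Myo7b and Eps8 depended on the scaling.

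**Figure D2:**
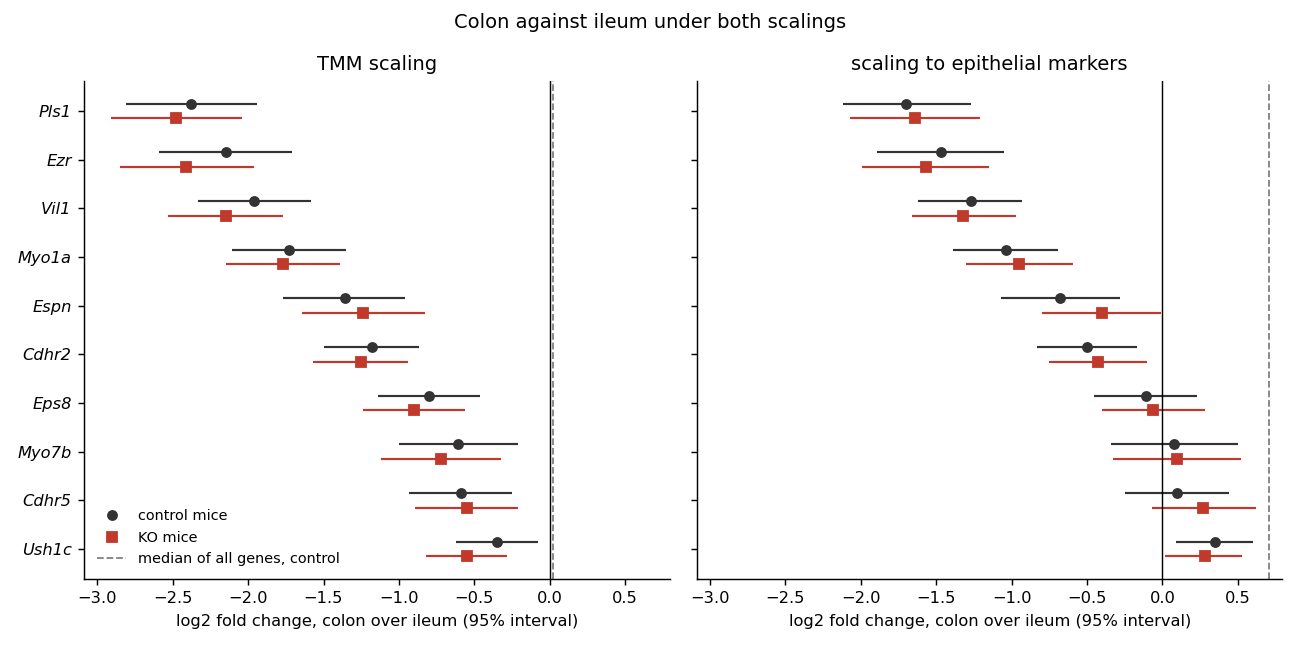
Log2 fold change of colon over ileum with its 95% interval for the 10 genes, in control mice (circles) and KO mice (squares), with TMM scaling on the left and scaling to 8 epithelial markers on the right, and the median of all genes in control mice as a dashed line (0.02 and 0.71). On the left all points are below 0. On the right Pls1, Ezr, Vil1, Myo1a, Espn and Cdhr2 stay below 0 while Ush1c, Cdhr5 and Myo7b are above it. Eps8 is also below 0 there (-0.11 in control and -0.06 in KO mice), with intervals that include 0.

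Because the members fell by unequal amounts, the make-up of the transcript pool differed between tissues. Per kb of exon, the ileal order was Vil1 (829.9 CPM per kb, SD 80.5, n = 6), Ezr (707, SD 62.7), Cdhr2 (521, SD 38.9), Pls1 (504, SD 79.2), Cdhr5 (485, SD 54.6), Myo1a (463, SD 65.8), Myo7b (70.4, SD 12.4), Ush1c (60, SD 6.29), Eps8 (37.4, SD 4.33) and Espn (31, SD 5.79). Vil1 and Ezr overlapped in range, as did each neighbour from Cdhr2 down to Myo1a, Myo7b with Ush1c, and Eps8 with Espn. A clear step lay between Myo1a and Myo7b.

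In colon the order of levels was Cdhr5 (326 CPM per kb, SD 23.3, n = 6), Cdhr2 (224, SD 13.5), Vil1 (199.7, SD 22.9), Ezr (146, SD 30.4), Myo1a (138, SD 17.8), Pls1 (94, SD 12.4), Myo7b (44.4, SD 4.22), Ush1c (43.9, SD 3.38), Eps8 (20.8, SD 2.75) and Espn (12.6, SD 0.848). Cdhr5 lay above all others without overlap. The ranges of Cdhr2 and Vil1 overlapped, as did those of Vil1 and Ezr, Ezr and Myo1a, and Myo7b and Ush1c. The low-level group of Myo7b, Ush1c, Eps8 and Espn was made of the same genes in the same order in both tissues. Their order rests on exon lengths, which were 12355 bases for Eps8 and 8272 bases for Espn. In CPM their means, in the order named, were 466, 231, 461 and 256 in ileum and 294, 169, 257 and 104 in colon.

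As a share of the summed level per kb of the 10 genes, Vil1 made up a mean of 22.4% in ileum and 16% in colon. Cdhr5 made up 13% in ileum (range 12.1 to 13.9%) and 26.1% in colon (24.8 to 27.4%). Pls1 went the other way, with 13.6% in ileum (10.6 to 16.3%) and 7.51% in colon (6.78 to 8.59%), and so did Ezr, with 19.1% (17.4 to 19.9%) and 11.6% (9.72 to 14.4%). Shares of 1 pool are tied to each other, so a higher share of Cdhr5 is also a lower share of the rest. Together the 10 genes took 1.18 to 1.43% of all counts in ileal libraries and 0.461 to 0.574% in colonic libraries.

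**Figure D3:**
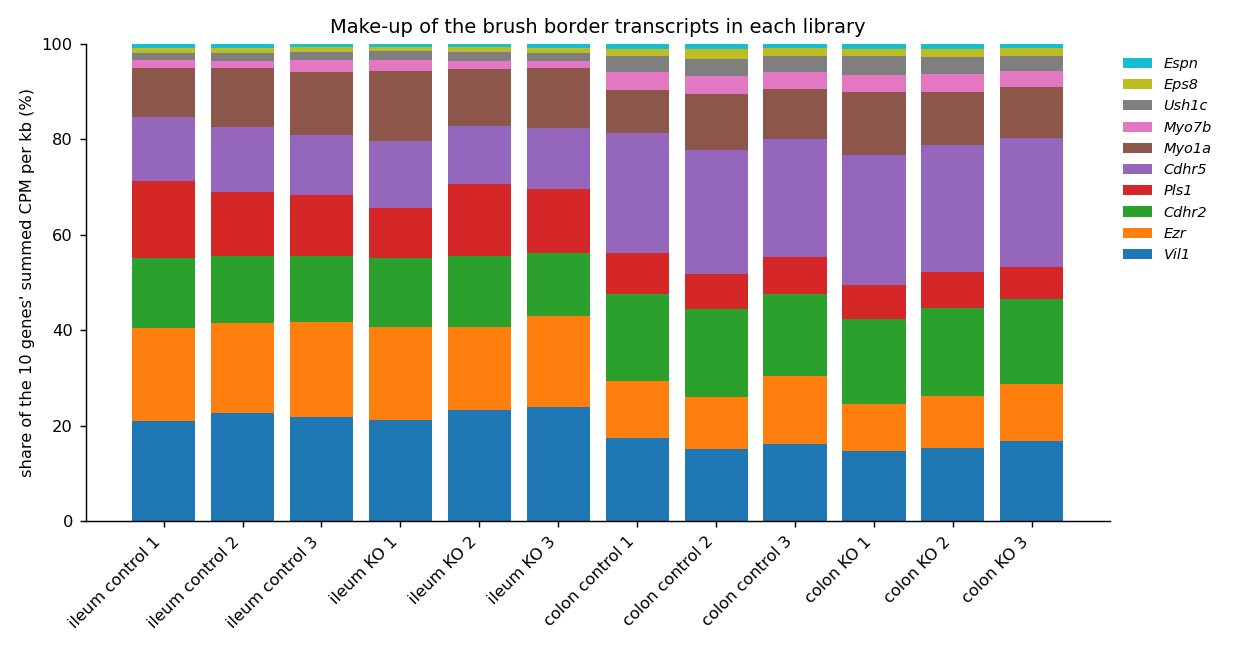
Stacked bars of the share of each gene in the summed CPM per kb of the 10 genes, in percent, for each of the 12 libraries. The Cdhr5 segment spans 12.1 to 13.9% in the 6 ileal bars and 24.8 to 27.4% in the 6 colonic bars, and the Pls1 segment 10.6 to 16.3% and 6.78 to 8.59%.

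The second comparison was of KO with control mice, which asks whether loss of the transporter from the epithelium went with a change in brush border transcripts. None of the 10 genes was called by edgeR in ileum, in colon or over both tissues, and adjusted p was 1 for each. At an unadjusted p under 0.05 the count was also 0 of 10 in each, against 1.52% of all genes in ileum, 2.33% in colon and 3.87% over both tissues. DESeq2 and limma-voom called 0 of 10 as well. Over all genes edgeR called 0 in each of these comparisons, while DESeq2 called 4 over both tissues and limma-voom 1, none of them a member.

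Over both tissues the log2 fold changes of KO over control ran from -0.16 for Eps8 (95% interval -0.38 to 0.07) to 0.20 for Myo1a (-0.05 to 0.44). Vil1, whose promoter drove Cre, was at 0.03 (-0.22 to 0.28) and Ezr at -0.11 (-0.40 to 0.18). Cdhr2 was at 0.04 (-0.17 to 0.24), Cdhr5 at 0.06 (-0.17 to 0.28) and Ush1c at 0.11 (-0.07 to 0.30). Espn was at 0.06 (-0.21 to 0.33), Myo7b at -0.04 (-0.31 to 0.23) and Pls1 at -0.12 (-0.40 to 0.15). With TMM scaling no interval of the 10 reached beyond -0.40 or 0.44. Relative to epithelial markers, which moved the median of all genes to -0.08, the intervals ran from -0.48 to 0.07 for Pls1, from -0.46 to 0.09 for Ezr and from -0.46 to -0.01 for Eps8, the last of which left out 0 at an edgeR adjusted p of 1.

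The exact two-sided permutation test of single genes, with genotypes exchanged within each tissue, gave p from 0.09 for Myo1a to 0.72 for Myo7b, and the smallest p it can give is 0.005. With library size as the only scaling Ush1c had an exact permutation p of 0.045, at 0.19 on the log2 scale. With scaling to epithelial markers Eps8 had an exact permutation p of 0.035, at -0.23. Neither was under 0.05 with TMM scaling, where the p was 0.145 for Ush1c and 0.15 for Eps8. The 8 epithelial markers themselves summed to 13300.1 to 14428 CPM in ileal control and to 14752 to 16578 CPM in ileal KO libraries. In colon the control and KO sums overlapped.

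Within single tissues the intervals were wider. In ileum the largest log2 fold changes were those of Myo1a (0.21, 95% interval -0.16 to 0.58) and Ush1c (0.21, -0.05 to 0.48), and in colon those of Ezr (-0.24, -0.66 to 0.18) and Eps8 (-0.21, -0.54 to 0.13). The control and KO ranges overlapped for 10 of 10 genes in each tissue, where 3.7% of all genes had groups that did not overlap in ileum and 12.8% in colon. The difference of the KO effect between colon and ileum was called for 0 of 10 genes by edgeR, and 0 of 10 had an unadjusted p under 0.05, against 1.02% of all genes.

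The ileal values were also read within each kind of library. In the libraries with few muscle transcripts, the ratio of KO replicate 1 to control replicate 3 was 1.35 for Espn, 1.31 for Myo1a and Cdhr5, and between 0.942 and 1.24 for the others. In the other ileal libraries, with 2 a genotype, the ratio of means ran from 0.887 for Espn to 1.12 for Ush1c. For Espn, Ezr, Cdhr2, Cdhr5 and Myo7b the ratio was above 1 in the former and below 1 in the latter. Without ileal KO replicate 2, which held Car1, the ileal log2 fold changes ran from -0.13 for Pls1 to 0.32 for Myo1a, and 0 of 10 were called.

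**Figure D4:**
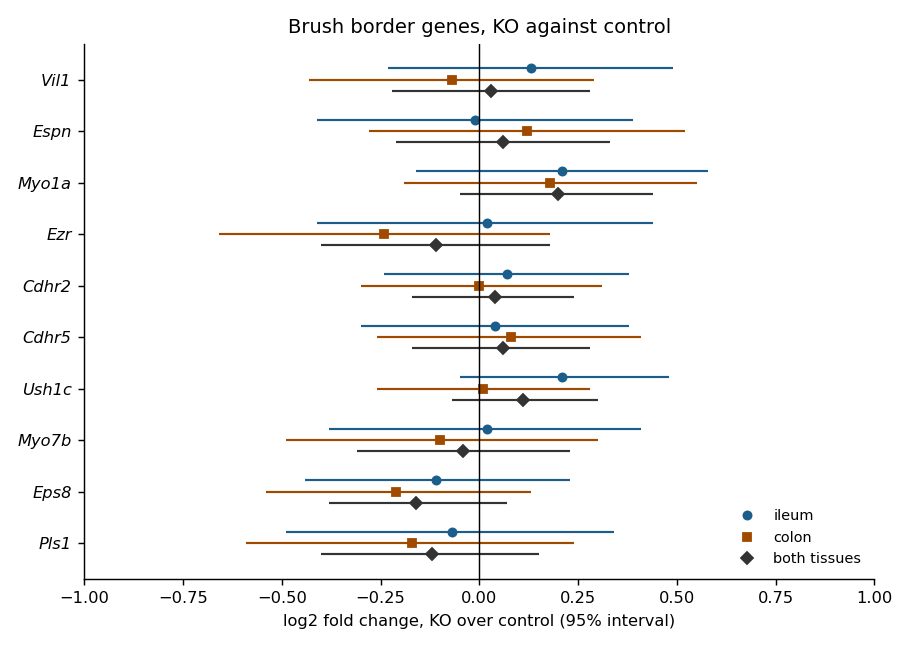
Log2 fold change of KO over control with its 95% interval for the 10 genes, in ileum (circles), in colon (squares) and over both tissues (diamonds). Every interval includes 0, and the points lie between -0.24 and 0.21.

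The levels of the 10 genes in the libraries with few muscle transcripts were also set beside those of the other ileal libraries. Myo7b lay above all the others in both, at 1.37 times their mean, while Eps8 at 0.813 times and Pls1 at 0.756 times lay below. Over all genes 23.2% lay above and 27.2% below in both, so 1 of 10 above and 2 of 10 below are close to the background. Crypt and proliferation markers summed to 1369 and 973 CPM in these libraries and to 368 to 505 CPM in the other ileal libraries. Paneth cell markers summed to 13068 and 10362 CPM there, against 4252 to 6840 CPM. The part of these cells in the values of Myo7b, Eps8 and Pls1 was not tested.

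Within a tissue the members varied together to different degrees. After the tissue mean was removed, the correlation of each gene with the mean of the other members over the 12 libraries was 0.87 for Cdhr2, 0.82 for Cdhr5, 0.73 for Vil1 and Ezr, 0.54 for Espn and 0.52 for Ush1c. It was 0.39 for Pls1, 0.35 for Eps8, 0.21 for Myo1a and -0.02 for Myo7b. The genes outside the list that followed the members' mean most closely, by the same measure, were Nub1 (0.94), Ltb4r2 (0.91), Mfn2 (0.90), B230216N24Rik (0.90) and Gm12251 (0.89). These values are a description over 12 libraries that share their scaling, and were picked from 16558 genes. Nub1 did not follow the tissue difference, with a log2 fold change of colon over ileum of 0.06 in control mice (edgeR adjusted p = 0.72, not called).

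Companion lists put the members in their setting. Of the remaining partners of the tip complex, Calml4, a light chain of Myo7b, was lower in colon in control mice (log2 fold change -1.08, SE 0.23, edgeR adjusted p = 0.0041). It was at 416, 331 and 209 CPM in ileal control and at 170.1, 143 and 139 CPM in colonic control libraries. Anks4b, a scaffold, was at -0.36 (SE 0.21, edgeR adjusted p = 0.23) and was not called. In KO mice the values were -1.06 for Calml4, again called, and -0.43 for Anks4b. Relative to epithelial markers Calml4 was at -0.40 in control mice (edgeR adjusted p = 0.16) and at -0.23 in KO mice (adjusted p = 0.39), and neither gene was called.

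Among 22 other proteins of the microvillus and terminal web, 12 were lower and 2 higher in colon in control mice, with a median log2 fold change of -0.56. Relative to epithelial markers 4 were lower and 7 higher, with a median of 0.13. On that scale 7.44% of all genes were called lower and 57.3% higher, with a median of 0.71. The largest decreases were those of Tmigd1, a membrane adhesion protein of the microvillus (-1.95), Cobl, an actin nucleator (-1.56), Baiap2l2, a membrane-bending protein (-1.17) and Actb, beta-actin (-1.17). Clmn, calmin, rose by 2.30 (SE 0.14, edgeR adjusted p = 6.8e-07), with 39.8 to 54.3 CPM in the 6 ileal and 174 to 235 CPM in the 6 colonic libraries.

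Of the 7 scaffolds and kinases of ezrin, 4 were lower and 1 higher in control mice. Slc9a3r1, the scaffold that ties ezrin to membrane transporters, fell by 1.82 on the log2 scale (SE 0.17, edgeR adjusted p = 1.2e-05). Pdzk1, another scaffold of apical transporters, was at 288 to 584 CPM in ileum and at 0 to 0.384 CPM in colon, and no fold is given because it was at or near 0 there. Pdzd3 was lower at -1.51. Of the kinases that phosphorylate ezrin, Stk10 was lower at -0.58, although at 0.10 and not called on the epithelial scale, and Slk was higher at 0.63. Slc9a3r2 at 0.58 and Stk26 at 0.31 were not called in control mice. Relative to epithelial markers 3 of the 7 were lower and 3 higher, against 7.44% and 57.3% of all genes.

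Paralogs of the members did not share their direction. Of 22 listed, 19 were tested in control mice, 7 of them lower and 5 higher in colon, with a median log2 fold change of 0.11. Relative to epithelial markers 4 were lower and 10 higher, against 7.44% and 57.3% of all genes. Those higher included Cdhr1 (4.59, with a mean of 0.52 CPM in ileum and 13.3 CPM in colon), Pls3 (1.61) and Vill (1.11), relatives of the cadherins, Pls1 and Vil1. Those lower included Myo7a (-2.0), Myo1g (-1.57), Lcp1 (-1.46) and Scin (-1.29), of which Lcp1 and Myo1g are known as genes of leukocytes. Pls3 had a mean of 11.3 CPM in ileum and 34.6 CPM in colon. The reporting summary of the study states that reads with a unique position were kept, which would leave out reads shared between such relatives. The deposited counts are not all whole numbers, however, so the values of relatives are uncertain to that extent.

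The hair cells of the inner ear use counterparts of the tip complex, of which 7 were listed. Of these, 6 had a row and 3 were tested. Myo7a was lower in colon, as above, with a mean of 40.4 CPM in ileum and 9.73 CPM in colon. Whrn had means of 7.14 and 9.94 CPM, and Pcdh15 means of 0.174 and 0.492 CPM. Neither was called, at log2 fold changes of 0.38 and 1.59. Both were called higher on the epithelial scale, at 1.08 and 2.26, as were 57.3% of all genes, whose median was 0.71. Cdh23 had a mean of 0.16 CPM in ileum and 0.298 CPM in colon, and Ush1g and Espnl were at most at 0.166 CPM in every library.

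Of 14 transcription factors of enterocytes, 6 were lower and 1 higher in colon in control mice. The decreases included Maf (-3.79), Hnf4g (-2.82), Creb3l3 (-2.80) and Prdm1 (-1.84), and Cdx1, a factor of posterior gut, rose by 0.59 (edgeR adjusted p = 0.068). Hnf4g had a mean of 235 CPM in ileum and 27.6 CPM in colon. Srf, whose box stood before Vil1, was lower at -0.67 (SE 0.22, edgeR adjusted p = 0.041), but at 0.02 and not called on the epithelial scale. Hnf4a was lower at -0.76 (SE 0.17, edgeR adjusted p = 0.007), but at -0.06 and not called on the epithelial scale (adjusted p = 0.74). Both were named after their values were seen. Relative to epithelial markers 4 of the 14 factors were lower and 7 higher, against 7.44% and 57.3% of all genes. Of 8 genes of apical trafficking, whose loss causes microvillus inclusion disease or which work with such genes, 7 were tested. Stx3 (-0.83), Rab8a (-0.59), Rab11a (-0.56) and Stxbp2 (-0.47) were lower, none of them so on the epithelial scale. Myo5b (-0.22), Vamp8 (-0.15) and Unc45a (0.18) were not called. On the epithelial scale all 3 were called higher, at 0.46, 0.53 and 0.87, where the median of all genes was 0.71. In KO against control, 0 genes of any companion list were called by edgeR in either tissue or over both.

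**Figure D5:**
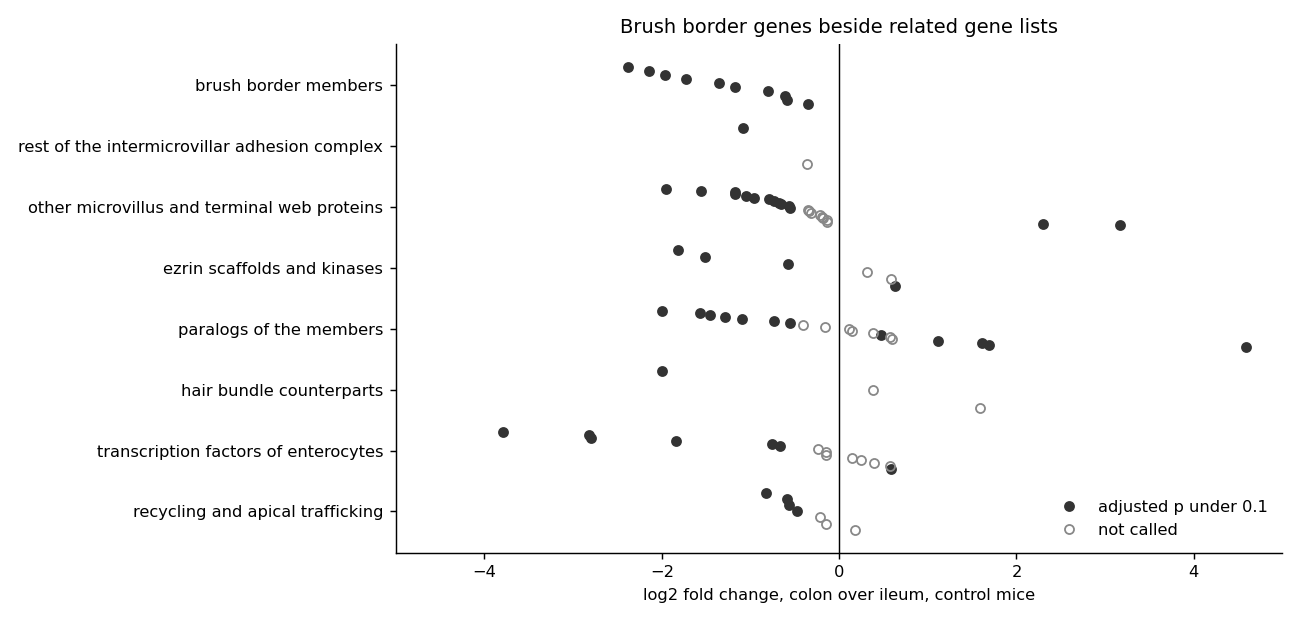
Log2 fold change of colon over ileum in control mice for each tested gene of the 10 members and of 7 companion lists, with filled points for an adjusted p under 0.1 and open points for the rest, and with Pdzk1 left out because it was at or near 0 in colon. All 10 members are filled and below 0, while the paralogs spread from -2.0 to 4.59.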

How the data were processed

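Whole mucosa of ileum and colon was sequenced from oligo-dT primed cDNA in 12 libraries. The authors aligned reads to mm10 with STAR and deposited 1 table of expected counts, estimates of reads per gene that are not normalized. The study's reporting summary names FeatureCounts on uniquely mapped reads for its counts. The deposited values are not all whole numbers, as that tool would give by default, so which tool made them is unsettled. Groups and replicate numbers were taken from the sample labels, and 92 spike-in lines, all at 0, were left out. Symbols, coordinates and exon lengths came from GENCODE M21.

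Rounded expected counts were fitted in R 4.3.3 with edgeR 4.0.16 (filterByExpr on the 4 groups, TMM factors, quasi-likelihood test). Benjamini-Hochberg adjustment ran over 16558 genes, and the study's threshold of 0.1 was kept. Tissue and genotype effects came from a model of the 4 groups, and genotype over both tissues from a model with tissue as an additive term. Intervals are at 95%. Permutation tests used log2 of CPM plus 0.5. DESeq2 1.42.0 and limma-voom (limma 3.58.1) were alternatives, beside other scalings, filters and left-out libraries. Scaling to epithelial markers set each library size to the summed count of 8 markers. Steps were tested on simulated data. No libraries agreed within sampling noise. Motif matches were found with Python 3.11.15.

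The members, the companion lists and the markers were chosen with earlier results of these data known. Named were all 10 members, companion lists of up to 8 genes in full, of longer lists the 4 largest changes in each direction among genes called between tissues in control mice, Slc39a8, the markers Epcam, Cdh1, Krt20, Acta2 and Myh11, and the 5 genes most like the members. Genes of the longer lists that this rule names and the text omits are not reported here. Other named genes were chosen after their values were seen, as were Car1, Aqp8, Fabp6 and Slc10a2 from their marker lists. 3 scalings to other sets of epithelial markers or libraries were added after the data were seen.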

Additional observations from a re-analysis of the deposited data

How the results depend on the processing

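Of the 10 genes, 10 were called between colon and ileum in both genotypes with DESeq2, limma-voom, RLE factors, a filter of 1 CPM and the 10 libraries that remain without both with few muscle transcripts. Leaving out 1 library at a time left 8 to 10 called in control mice and 10 in KO mice. In every alternative and left-out library 0 were called by genotype. Values that were not called did change sign, counted with 1 value for each gene in each setting. This held for 44 of 270 values in ileum, 8 of 270 in colon, 24 of 260 over both tissues and 32 of 260 for the difference. In control mice Ush1c was not called with upper-quartile factors (-0.25), without a low-count filter (-0.34), with the libraries of the comparison alone (-0.34) or at a threshold of 0.05. With library size only, Ush1c (-0.12) and Myo7b (-0.40) were not called in control mice, nor Cdhr5 (-0.28), Ush1c (-0.28) and Myo7b (-0.46) in KO mice. Among all genes in control mice, 2689 were higher and 3251 lower with TMM, 4156 and 2102 with library size only, and 3373 and 2741 with upper-quartile factors, with medians of 0.02, 0.24 and 0.12.

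Scaling to epithelial transcripts turned the sign of 4 genes. With 8 markers the log2 fold changes were 0.10 for Cdhr5, 0.35 for Ush1c and 0.08 for Myo7b in control mice and 0.27, 0.28 and 0.10 in KO mice. The same scaling in 10 libraries gave Ush1c 0.32 and Myo7b 0.21 in control mice and Cdhr5 0.38, Ush1c 0.34 and Myo7b 0.34 in KO mice. Without keratins the values were 0.24 for Cdhr5, 0.47 for Ush1c, 0.20 for Myo7b and 0.03 for Eps8 in control mice and 0.28, 0.28 and 0.11 for the first 3 in KO mice. With Epcam, Cdh1 and Cldn7 they were 0.44, 0.67, 0.39 and 0.23 in control and 0.48, 0.48, 0.30 and 0.14 in KO mice, in which 6 genes were called, 4 lower and 2 higher, with Espn and Cdhr2 no longer called. Each of these scalings divides by a sum of transcripts that was itself lower in colon. Single-gene permutation tests of genotype passed for 0 genes with TMM and RLE factors, for 1 (Ush1c) with library size only and for 1 (Eps8) with epithelial scaling.

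With the replicate number as a block, 10 members were called between tissues in both genotypes and 0 by genotype, and 5333 and 5558 of all genes were called between tissues. Of 18 pairs of libraries with the same number, 5 had a correlation of deviations over 0.1 (range -0.69 to 0.40). Most of these pairs cross genotypes and cannot come from the same mouse. Pairs of ileum and colon within a genotype had -0.05, 0.16 and -0.08 in control mice and 0.19, 0.05 and 0.25 in KO mice. Whether the numbers pair samples is therefore not settled, and the libraries were taken as independent. Precision is limited by 3 libraries a group rather than by depth.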
